A study of Mus musculus with 12 samples.

Results

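The genes described here make cholesterol and control how much of it a cell makes. They are 27 listed mouse genes: 19 for enzymes, 5 for proteins that turn the enzyme genes on or hold them back according to sterol, and 3 for proteins that move cholesterol. A gene was measured by the probe sets (groups of short array probes) annotated to its symbol and to no other, and of several the one with the highest mean level over all 12 arrays was used. By that rule 26 of the 27 were measured, and all 26 were also among the 11806 genes tested, of 18193 with a probe set of their own. The expression of Acat2, an acetyl-CoA acetyltransferase of the cytosol, was not analysed here.

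Cells build cholesterol from acetyl-CoA. The mevalonate steps give isoprenoid units, which also feed protein prenylation, ubiquinone and dolichol; squalene synthase then commits the carbon to sterols, squalene is closed to lanosterol, and a last run of steps trims lanosterol to cholesterol. When membranes of the endoplasmic reticulum are low in sterol, Scap escorts the SREBP transcription factors to the Golgi for cleavage, and the cleaved factors switch on the enzyme genes. When sterol is plentiful, Insig proteins hold Scap back, and oxysterols turn on the exporters Abca1 and Abcg1 through LXR receptors.

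The cells were mouse embryonic stem (ES) cells of 129P2/OlaHsd origin (E14, Ainv15) in which doxycycline switches on a transgene for Neurog1, a transcription factor that drives neuron formation. The groups were cells of the maintenance culture without doxycycline (uninduced, 0 h) and cells given 1 ug/ml doxycycline for 24, 48 and 72 h, with 3 arrays per group that the labels call biological replicates. All of them carried the transgene and grew in medium with serum, LIF (which keeps ES cells undifferentiated), puromycin and G418. Uninduced cells were sampled at 0 h only, so effects of Neurog1, of doxycycline and of the hours in culture cannot be told apart, and the 3 comparisons with uninduced cells share the same 3 control arrays.

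The Neurog1 signal was 4.53 to 18.7 on uninduced arrays, 756 to 974 at 24 h, 889 to 1152 at 48 h and 465 to 784 at 72 h. The summed signal of 10 ES cell markers was 44910 to 50880 in uninduced cells, 22320 to 29490 at 24 h, 5884 to 8929 at 48 h and 5072 to 5788 at 72 h. That of 10 neuronal markers was 3943 to 4445, 1927 to 4637, 10790 to 15160 and 19980 to 20800 in the same order of times. Stmn2 alone gave 3222 to 3649 in uninduced cells and 686 to 1654 at 24 h. At 24 h 4 of the 10 rose and 1 fell, where 8.12% and 3.18% of all genes did. Only 7 of the 10 exceeded the array median on all 3 uninduced arrays. The others entered the test through induced groups, which favoured a rise. The sum over 7 endoderm and liver markers was 52.5 to 75.1 in uninduced cells, 99.1 to 215 at 24 h, 185 to 257 at 48 h and 168 to 341 at 72 h, and that over 5 measured glial markers was 52.4 to 77.3, 108 to 206, 133 to 318 and 138 to 392. Of these markers 2 of endoderm and liver and 1 of glia were tested, and none exceeded the array median on all 3 uninduced arrays. They entered the test through induced groups only. Their calls as higher at 72 h were thus favoured in advance, and nothing is concluded from them. The sum over 7 fibroblast markers was 71.2 to 316 on the 12 arrays. The part of these changes in markers and of the change in cell type in the results was not tested, and in bulk RNA fewer cells of a type and less RNA per cell cannot be told apart. Induced 24 h replicate 1 was unlike its group: over the genes tested its r was 0.812 and 0.787 with the other 24 h arrays, against 0.977 between those arrays, and its ratio of 3′ to 5′ signal for the control transcript Pcx was 6.81 against 1.22 to 2.8 elsewhere. It held the highest value of all 12 arrays for 11 members and the lowest for 6, as for 31.7% and 24.8% of all genes. Uninduced replicate 3 held the lowest value of all arrays for 17 of the 26 members, against 12% of all genes, and calls that change without either array are given both ways.

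Many of the synthesis genes were higher in induced cells: 12 of the 18 enzyme genes tested rose at 24 h, 9 at 48 h and 9 at 72 h. Which time had the most calls depended on the arrays and the fit. Without induced 24 h replicate 1, 16, 14 and 16 members rose at 24, 48 and 72 h, where 25%, 56.5% and 61.9% of all genes were called in either direction. Fits of only the 6 arrays compared called 5 members at 24 h and 17 at 72 h. Calls over all genes moved as well, from 385 to 2999 at 24 h and from 3468 to 7740 at 72 h over the alternatives. Nothing particular to the members is concluded from these shifts. Without uninduced replicate 3, 10, 5 and 6 members rose. In all 11, 6 and 7 of 26 were then called, where 6.86%, 29% and 36.3% of all genes passed. At 48 and 72 h these were smaller shares of the members than of all genes. At 24 h 13 of 26 members rose and 1, Abca1, fell (adjusted p under 0.05, limma with Benjamini-Hochberg adjustment over all genes tested), where 11.3% of all genes passed, 8.12% higher and 3.18% lower. At 48 h 12 rose and 1, Ebp, fell, against 36.6% of all genes, 22.6% higher and 14% lower. At 72 h 10 rose and Ebp again fell, against 43.9% of all genes, 25.3% higher and 18.6% lower. The 11 of 26 members called at 72 h were thus close to the share of all genes called. The median difference of the members on the log2(signal + 16) scale was 1.22, 0.73 and 0.70 at 24, 48 and 72 h, beside 0.10, 0.12 and 0.09 for all genes tested. Of the members, 9 of 26 rose at all 3 times (5.67% of all genes did): Hmgcs1, Sqle, Cyp51, Tm7sf2, Msmo1, Nsdhl, Hsd17b7, Dhcr7 and Insig1. Adding 16 to each signal understates the change of dim genes.

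**Figure D1:**
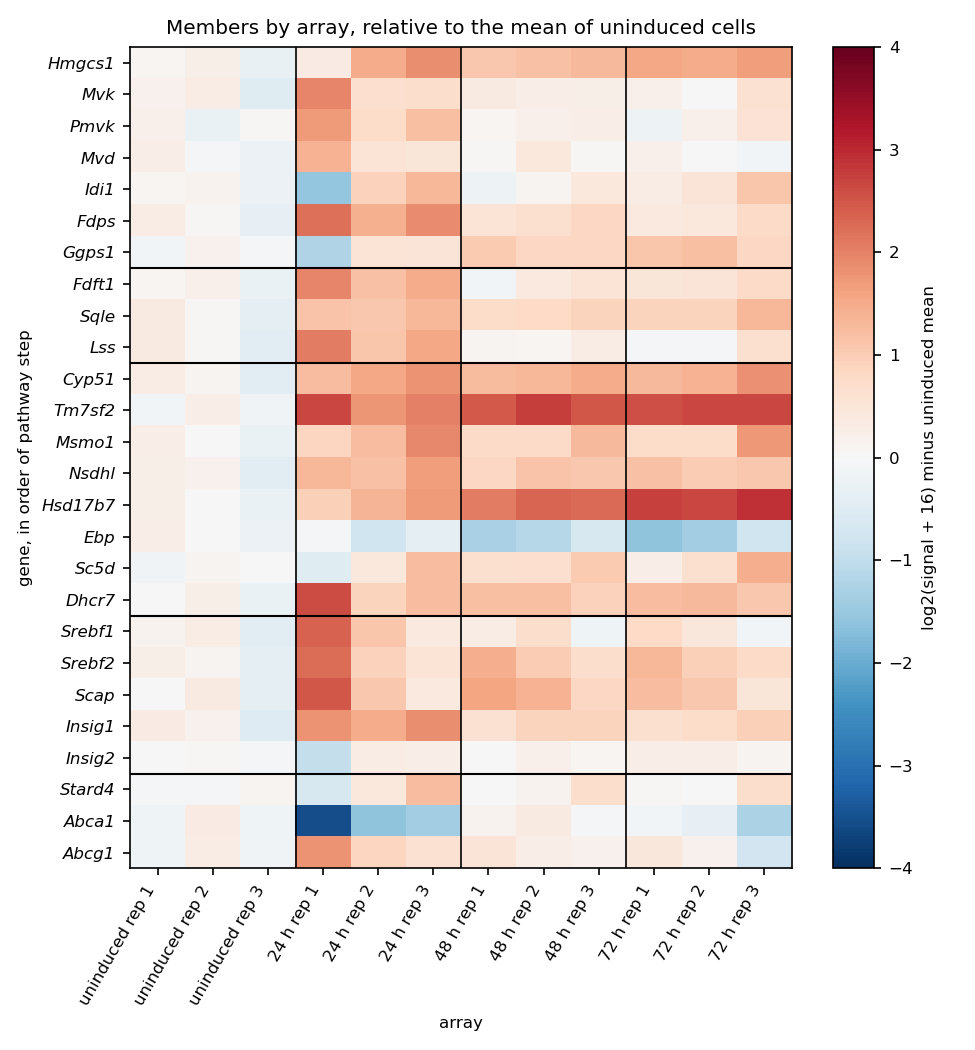
Level of each of the 26 measured genes (down the page, in order of pathway step, black lines between steps) on each of the 12 arrays (across), as log2(signal + 16) minus the mean of the 3 uninduced arrays; red is higher and blue lower. Tm7sf2 and Hsd17b7 are red on all 9 induced arrays, Abca1 is blue on the 3 arrays at 24 h, Ebp is blue at 48 and 72 h, and induced 24 h replicate 1 differs in colour from its group for Idi1, Ggps1, Sc5d, Insig2 and Stard4.

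Of the 7 mevalonate-step genes tested, 3 rose at 24 h, 2 at 48 h and 2 at 72 h, and none fell, where 8.12%, 22.6% and 25.3% of all genes rose. At the later times 2 of 7 is close to those shares. Hmgcs1, the cytosolic HMG-CoA synthase that feeds the pathway, gave signals of 1744, 1963 and 1343 in uninduced cells, 2100, 4631 and 6093 at 24 h, 3547, 3801 and 4129 at 48 h, and 4864, 4643 and 5333 at 72 h. Every induced array lay above every uninduced one, the closest being induced 24 h replicate 1. The log2 difference was 1.22 ± 0.31 (SE, n = 3 arrays per group here and below) at 24 h (adjusted p = 0.0231), 1.19 ± 0.31 at 48 h (adjusted p = 0.00893) and 1.56 ± 0.31 at 72 h (adjusted p = 0.0013). At 24 h it was 1.67 ± 0.17 without induced 24 h replicate 1 and 1.07 ± 0.34 without uninduced replicate 3 (adjusted p = 0.0928). Of the 4 other probe sets of Hmgcs1, 3 did not pass at 24 h in a fit of all probe sets (0.98 ± 0.40, 1.04 ± 0.38 and 0.93 ± 0.50, adjusted p = 0.161, 0.115 and 0.287). Its promoter is shown because it holds a perfect match to the classic sterol regulatory element. The window from RefSeq (GRCm38.p6) runs from 250 bases before a start site that RefSeq gives the gene through the first 50 bases after it, chr13:119690101-119690400 on the plus strand, in capitals where TCACNCCAC or its inner CACNCCAC (the SREBP element) or CCAAT (the box bound by NF-Y, a partner of SREBP) matches on either strand.
Hmgcs1: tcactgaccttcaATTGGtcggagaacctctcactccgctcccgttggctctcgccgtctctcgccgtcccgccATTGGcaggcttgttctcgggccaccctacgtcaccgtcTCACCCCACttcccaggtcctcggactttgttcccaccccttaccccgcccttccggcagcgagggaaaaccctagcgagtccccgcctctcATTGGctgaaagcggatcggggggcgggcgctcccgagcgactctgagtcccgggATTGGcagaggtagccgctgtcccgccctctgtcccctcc
The element TCACCCCAC starts 137 bases before the start site, and CCAAT boxes lie on the opposite strand on both sides of it.

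Fdps, farnesyl diphosphate synthase, had the highest signals of its chosen probe set at 24 h. Its signals were 1303, 1077 and 825 in uninduced cells, 4885, 2855 and 3897 at 24 h, 1551, 1653 and 1889 at 48 h, and 1389, 1424 and 1810 at 72 h. All induced arrays lay above all uninduced ones, and the 24 h arrays lay above every later one. The log2 difference was 1.84 ± 0.24 at 24 h (adjusted p = 0.00042), 0.68 ± 0.24 at 48 h (adjusted p = 0.0392, and 0.156 without uninduced replicate 3) and 0.54 ± 0.24 at 72 h (adjusted p = 0.0844, and 0.0184 without induced 24 h replicate 1). Over 21 alternatives, 12 of which each leave out 1 array, the difference at 24 h stayed called and ran from 0.91 to 2.04. The call at 48 h was lost in 9 of them, the mean of the 2 Fdps probe sets among these. With that mean the fall from 24 to 48 h did not pass either (adjusted p = 0.0539). Pmvk, phosphomevalonate kinase, had 188, 133 and 170 in uninduced cells, 570, 278 and 399 at 24 h, 174, 191 and 198 at 48 h, and 139, 188 and 250 at 72 h. It rose by 1.22 ± 0.28 at 24 h (adjusted p = 0.0161), and its 48 and 72 h arrays overlapped the uninduced ones. For Mvk, mevalonate kinase, the difference at 24 h was 1.11 ± 0.34 (adjusted p = 0.055), and for Mvd, which makes isopentenyl diphosphate, 0.81 ± 0.27 (adjusted p = 0.077). Neither passed, although the 24 h arrays lay above the uninduced ones for both, and without induced 24 h replicate 1 the differences were 0.69 ± 0.25 for Mvk and 0.51 ± 0.20 for Mvd (adjusted p = 0.0585 and 0.0733).

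For Idi1 and Ggps1 the call at 24 h depended on induced 24 h replicate 1. Idi1, the isopentenyl diphosphate isomerase, had 302, 1748 and 2307 at 24 h, against 977, 1024 and 776 in uninduced cells. With all arrays its difference was 0.22 ± 0.56 (95% interval -0.995 to 1.44, adjusted p = 0.829), and without that array 1.11 ± 0.24 (adjusted p = 0.0051). At 72 h it was 0.64 ± 0.56 (adjusted p = 0.386, and 0.0199 without that array). Ggps1, which makes geranylgeranyl diphosphate for protein prenylation and so leads away from sterols, had 37.9, 166 and 160 at 24 h, against 99.0, 123 and 102 in uninduced cells. Its difference was -0.04 ± 0.38 with all arrays and 0.54 ± 0.18 without that array (adjusted p = 0.0415). At 48 h the difference was 0.90 ± 0.38 (adjusted p = 0.0851, and 0.000351 without that array). At 72 h Ggps1 had 252, 266 and 203 and was higher by 1.04 ± 0.38 (adjusted p = 0.0413), or 1.01 ± 0.45 without uninduced replicate 3 (adjusted p = 0.101). That call at 72 h was lost in 13 of the 21 alternatives.

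All 3 genes from farnesyl diphosphate to lanosterol rose at 24 h, and 1 of them, Sqle, stayed called at 48 and 72 h. Fdft1, squalene synthase, had 948, 1026 and 738 in uninduced cells, 3483, 2047 and 2528 at 24 h, 829, 1176 and 1311 at 48 h, and 1269, 1274 and 1519 at 72 h. It was higher by 1.53 ± 0.25 at 24 h (adjusted p = 0.00189), with differences of 0.27 ± 0.25 at 48 h (adjusted p = 0.419) and 0.58 ± 0.25 at 72 h (adjusted p = 0.0722, and 0.012 without induced 24 h replicate 1). Sqle, the squalene epoxidase that controls flux in the sterol branch, had 705, 561 and 414 in uninduced cells, 1230, 1171 and 1397 at 24 h, 922, 953 and 1023 at 48 h, and 1038, 1031 and 1388 at 72 h. No induced array overlapped an uninduced one, and the differences were 1.18 ± 0.22, 0.80 ± 0.22 and 1.04 ± 0.22 (adjusted p = 0.00506, 0.0142 and 0.00246 at 24, 48 and 72 h). Without uninduced replicate 3 the difference at 48 h was 0.60 ± 0.23 (adjusted p = 0.0694).

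Lss, lanosterol synthase, had 279, 224 and 157 in uninduced cells, 947, 480 and 662 at 24 h, 233, 230 and 268 at 48 h, and 201, 207 and 344 at 72 h. It rose by 1.57 ± 0.30 at 24 h (adjusted p = 0.0054), and its later arrays overlapped the uninduced ones. A dimmer probe set of Lss, 1426913_at, did not follow that course. In a fit of all probe sets it was higher by 1.92 ± 0.38 at 24 h, 1.83 ± 0.38 at 48 h and 2.24 ± 0.38 at 72 h, so the later course of Lss depends on the probe set.

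The steps from lanosterol to cholesterol held the largest single rise among the members at each time. Of their 8 genes 6 rose at each time, where 8.12%, 22.6% and 25.3% of all genes rose at 24, 48 and 72 h. At 24 h their median difference was 1.36, below the 1.53 of the 3 genes from farnesyl diphosphate to lanosterol. Hsd17b7, the keto reductase of the demethylation steps, had its highest signals at 72 h. Its signals were 96.8, 81.6 and 63.99 in uninduced cells, 168, 231 and 297 at 24 h, 376, 470 and 444 at 48 h, and 624, 595 and 712 at 72 h, with no overlap between any groups. The log2 difference was 1.34 ± 0.24, 2.21 ± 0.24 and 2.78 ± 0.24 (adjusted p = 0.00387, 2.47e-05 and 2.54e-06), the last of these 6.86-fold. Over 21 alternatives the Hsd17b7 calls at 48 and 72 h were kept, with differences of 1.56 to 2.41 and 1.91 to 2.99. The call at 24 h was lost in the fit of only the 6 arrays compared. Tm7sf2, a sterol reductase that acts after lanosterol demethylation, had 53.3, 73.1 and 51.6 in uninduced cells, 461, 238 and 285 at 24 h, 392, 494 and 401 at 48 h, and 429, 456 and 456 at 72 h. It was higher by 2.15 ± 0.25, 2.57 ± 0.25 and 2.63 ± 0.25 (adjusted p = 0.000241, 1.09e-05 and 5.51e-06). The promoters of both, the genes with the largest rises among the members at 72 h, are shown for comparison with Hmgcs1. They are the windows chr1:169969156-169969455 and chr19:6067801-6068100, both on the minus strand.
Hsd17b7: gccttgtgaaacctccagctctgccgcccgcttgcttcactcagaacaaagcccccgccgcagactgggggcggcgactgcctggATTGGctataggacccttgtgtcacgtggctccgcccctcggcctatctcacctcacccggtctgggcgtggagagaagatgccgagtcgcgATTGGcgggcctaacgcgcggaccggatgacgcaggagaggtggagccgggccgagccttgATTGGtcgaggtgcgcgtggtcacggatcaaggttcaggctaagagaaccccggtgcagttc
Tm7sf2: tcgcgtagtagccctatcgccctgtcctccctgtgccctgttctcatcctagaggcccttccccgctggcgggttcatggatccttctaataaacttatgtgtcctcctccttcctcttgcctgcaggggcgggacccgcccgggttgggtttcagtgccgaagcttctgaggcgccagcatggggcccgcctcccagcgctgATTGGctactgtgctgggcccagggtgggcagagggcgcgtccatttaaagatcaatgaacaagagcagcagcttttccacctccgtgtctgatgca
Neither window holds the SREBP element as spelt here, and the capitals are CCAAT boxes, 3 in Hsd17b7 and 1 in Tm7sf2.

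Cyp51, the lanosterol demethylase, had 296, 258 and 172 in uninduced cells, 578, 714 and 855 at 24 h, 594, 618 and 686 at 48 h, and 604, 646 and 888 at 72 h. Its differences were 1.52 ± 0.25, 1.36 ± 0.25 and 1.51 ± 0.25 (adjusted p = 0.00244, 0.0012 and 0.000422). Nsdhl, a dehydrogenase of the demethylation steps, had 452, 425 and 280 in uninduced cells and 678 to 1231 on the 9 induced arrays, with differences of 1.38 ± 0.23, 1.01 ± 0.23 and 1.08 ± 0.23 (adjusted p = 0.00243, 0.00448 and 0.00215). Msmo1, the methylsterol monooxygenase, had 744, 620 and 510 in uninduced cells and 1044 to 2407 on induced arrays, with differences of 1.35 ± 0.33, 0.94 ± 0.33 and 1.08 ± 0.33 (adjusted p = 0.0205, 0.0412 and 0.0186). Dhcr7, the reductase that ends one route to cholesterol, had 197, 233 and 159 in uninduced cells, and 376 to 1277 on induced arrays. Its differences were 1.59 ± 0.36, 1.10 ± 0.36 and 1.21 ± 0.36 (adjusted p = 0.0141, 0.0301 and 0.0162), and 1.07 ± 0.18 at 24 h without induced 24 h replicate 1, which held the 1277. Without uninduced replicate 3 neither Msmo1 nor Dhcr7 passed at any time (adjusted p = 0.0828, 0.136 and 0.0728 for Msmo1, and 0.0616, 0.104 and 0.0632 for Dhcr7). With the mean of its 2 probe sets Msmo1 passed at no time. The Msmo1 calls at 24, 48 and 72 h were lost in 5, 8 and 3 of the 21 alternatives.

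**Figure D2:**
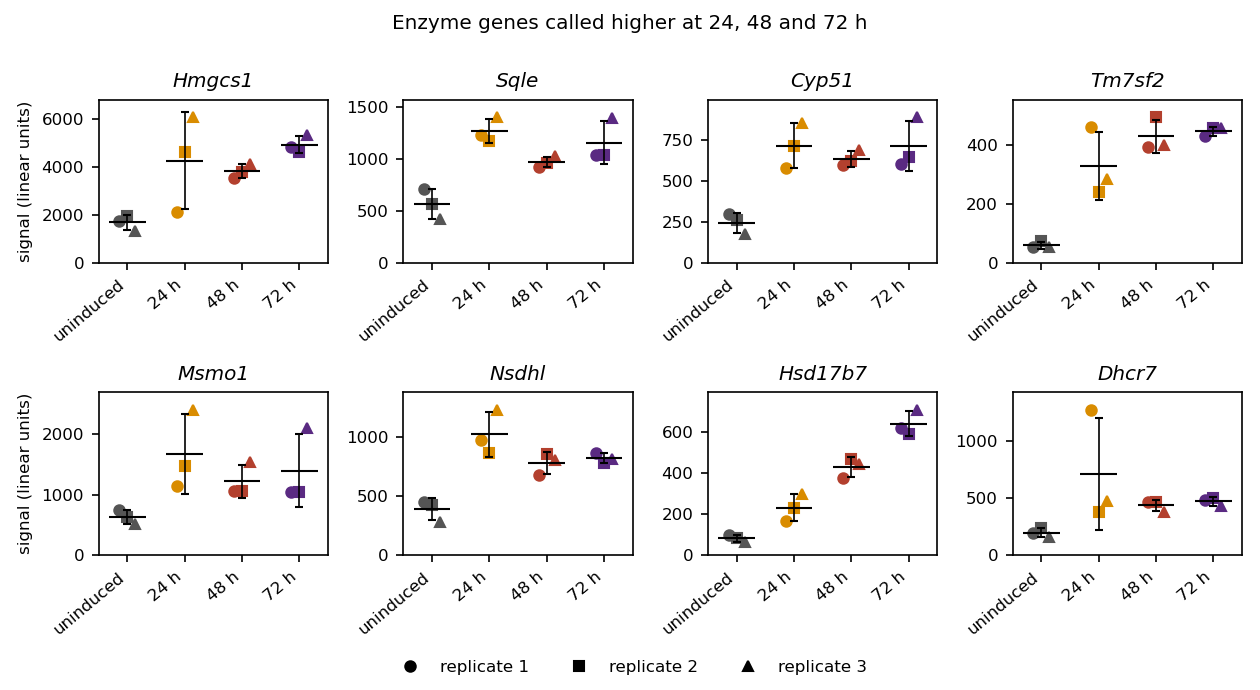
Signal in linear units (vertical axis from 0) of the 8 enzyme genes that rose at all 3 times, in uninduced cells and at 24, 48 and 72 h; symbols are the 3 arrays of a group by replicate number, and the black line and bar are their mean ± SD. No induced array overlaps an uninduced one in any panel, Hsd17b7 reaches 595 to 712 at 72 h, and induced 24 h replicate 1 stands above its group for Dhcr7 and below it for Hmgcs1.

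Ebp and Sc5d took other courses. Ebp, the sterol isomerase that moves a ring double bond, was the only one of the 18 enzyme genes tested that fell against uninduced cells. It had 694, 573 and 490 in uninduced cells, 546, 330 and 444 at 24 h, 228, 256 and 365 at 48 h, and 178, 210 and 328 at 72 h. The arrays at 24 h overlapped the uninduced ones and the later arrays lay below them. The difference was -0.41 ± 0.29 at 24 h (adjusted p = 0.389), -1.02 ± 0.29 at 48 h (adjusted p = 0.0142) and -1.27 ± 0.29 at 72 h (adjusted p = 0.00326). Sc5d, the desaturase after Ebp, had 161, 196 and 182 in uninduced cells, and its differences of 0.39 ± 0.39, 0.78 ± 0.39 and 0.78 ± 0.39 did not pass (adjusted p = 0.561, 0.141 and 0.129). Without induced 24 h replicate 1 Sc5d differed by 0.82 ± 0.31 at 24 h (adjusted p = 0.0676) and passed at 48 and 72 h (adjusted p = 0.0266 and 0.0247). A dimmer probe set of Sc5d, 1434520_at, was higher by 1.70 at 48 h and 1.91 at 72 h in the fit of all probe sets.

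After 24 h some of these genes fell, others rose and most did not pass. Between 24 and 48 h 5 members fell and 2 rose, where 17.8% of all genes passed, 10.3% higher and 7.55% lower. Those that fell, Pmvk by 1.03 ± 0.28, Fdps by 1.16 ± 0.24, Fdft1 by 1.26 ± 0.25, Lss by 1.41 ± 0.30 and Insig1 by 0.91 ± 0.25, were also the 5 of 26 that had risen at 24 h and then fell, a course that 1.24% of all genes took. With the mean of all probe sets the falls of Fdps, Fdft1 and Lss did not pass (adjusted p = 0.0539, 0.0749 and 0.0672). Those of Pmvk and Insig1 were lost in 4 and 5 of the 21 alternatives. Each of the 5 fell without induced 24 h replicate 1 (differences of -0.78, -0.97, -1.06, -1.16 and -0.87), and Idi1 joined them there at -1.001 ± 0.24 (adjusted p = 0.00831). Hsd17b7 rose by 0.87 ± 0.24 (adjusted p = 0.0255), a call lost in 5 of 21 alternatives, the mean of its probe sets among these. Without induced 24 h replicate 1 Tm7sf2 rose by 0.68 ± 0.18 (adjusted p = 0.0133). Over the same interval the differences for Hmgcs1, Cyp51 and Scap were -0.03 ± 0.31, -0.16 ± 0.25 and -0.05 ± 0.45.

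Between 48 and 72 h no member passed, where 0.796% of all genes did, 0.644% higher and 0.152% lower. Only 1 member, Hsd17b7, had an unadjusted limma p under 0.05, with a difference of 0.57 ± 0.24 (adjusted p = 0.495). At 72 h against 24 h 8 members were lower and 3 higher, beside 31.3% of all genes, 16.2% higher and 15.1% lower. The lower ones were Pmvk, Mvd, Fdps, Fdft1, Lss, Ebp, Insig1 and Abcg1, and the higher ones Ggps1, Hsd17b7 and Abca1. Without induced 24 h replicate 1 the calls of Mvd (-0.48 ± 0.20, adjusted p = 0.0678) and Abcg1 (-0.78 ± 0.30, adjusted p = 0.0509) were lost, and Tm7sf2 was higher by 0.74 ± 0.18 (adjusted p = 0.00515). Ggps1 was higher by 1.09 ± 0.38 with all arrays and 0.51 ± 0.18 without that array, and Abca1 by 1.62 ± 0.48 and 0.94 ± 0.28. The Ggps1 call was lost in 14 of 21 alternatives, and it and that of Mvd were lost without uninduced replicate 3 (adjusted p = 0.0625 and 0.056).

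**Figure D3:**
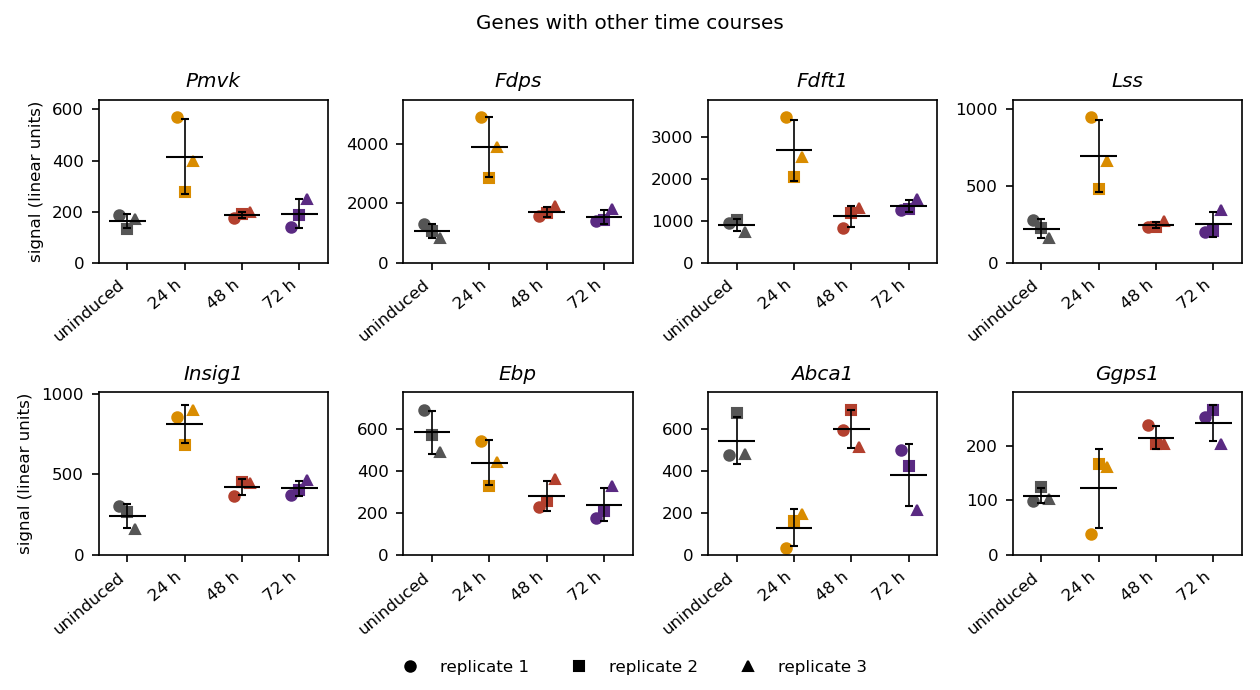
Signal in linear units (vertical axis from 0) of 8 genes with other courses, in uninduced cells and at 24, 48 and 72 h; symbols are the 3 arrays of a group by replicate number, and the black line and bar are their mean ± SD. Pmvk, Fdps, Fdft1, Lss and Insig1 peak at 24 h, Ebp falls, Abca1 has its lowest values at 24 h, and for Ggps1 induced 24 h replicate 1 lies at 37.9, under every other array.

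Among the 5 sterol control genes Insig1 was the one that rose at all 3 times. Insig1 holds Scap in the endoplasmic reticulum and is itself an SREBP target. The Insig1 signals were 301, 268 and 159 in uninduced cells, 857, 679 and 900 at 24 h, 366, 453 and 448 at 48 h, and 371, 402 and 465 at 72 h. No induced array overlapped an uninduced one, and the differences were 1.71 ± 0.25 at 24 h (adjusted p = 0.00102), 0.80 ± 0.25 at 48 h (adjusted p = 0.0256) and 0.77 ± 0.25 at 72 h (adjusted p = 0.0259). Without uninduced replicate 3 the later differences were 0.54 ± 0.24 and 0.51 ± 0.24 (adjusted p = 0.118 and 0.123). Its promoter window, chr5:28071162-28071461 on the plus strand, is shown because it holds the inner letters of the SREBP element on the opposite strand, 9 bases before the start site.
Insig1: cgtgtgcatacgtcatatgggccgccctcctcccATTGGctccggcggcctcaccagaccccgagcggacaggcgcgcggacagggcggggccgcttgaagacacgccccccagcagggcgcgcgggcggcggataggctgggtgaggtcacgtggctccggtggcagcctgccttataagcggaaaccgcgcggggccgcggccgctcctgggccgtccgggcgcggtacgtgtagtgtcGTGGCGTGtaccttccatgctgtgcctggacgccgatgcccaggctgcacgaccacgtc

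Insig2, its paralogue, differed by -0.12 ± 0.29, 0.11 ± 0.29 and 0.22 ± 0.29, with 95% intervals that ran from -0.76 to 0.51 at 24 h and from -0.42 to 0.86 at 72 h. For Srebf1, Srebf2 and Scap, the SREBP genes and the escort gene, the 24 h arrays lay above the uninduced ones, yet replicate 1 at 24 h was far above the others. Srebf2, which encodes the factor that acts mainly on cholesterol genes, had 951, 372 and 284 at 24 h, against 226, 209 and 146 in uninduced cells (1.22 ± 0.39, adjusted p = 0.0612, and 0.72 ± 0.25 without that array, adjusted p = 0.0514). At 48 h Srebf2 was higher by 1.06 ± 0.39 (adjusted p = 0.0481) and Scap by 1.26 ± 0.45 (adjusted p = 0.0417), and both calls were lost without uninduced replicate 3 (adjusted p = 0.159 and 0.137). Over the 21 alternatives, most of which leave out 1 array, the Srebf2 call at 48 h was lost in 13 and the Scap call in 9. At 72 h the differences were 1.01 ± 0.39 for Srebf2 (adjusted p = 0.0509) and 0.93 ± 0.45 for Scap (adjusted p = 0.111), and both passed without induced 24 h replicate 1 (adjusted p = 0.00158 and 0.00825). At 24 h Scap differed by 1.31 ± 0.45 (adjusted p = 0.0795), and by 0.73 ± 0.30 without that array (adjusted p = 0.0921). Srebf1, which encodes the factor that also drives fatty acid genes, had 1440, 599 and 353 at 24 h, against 294, 328 and 194 in uninduced cells, with differences of 1.29 ± 0.44 at 24 h (adjusted p = 0.0805, and 0.76 ± 0.32 without that array, adjusted p = 0.103), 0.28 ± 0.44 at 48 h and 0.38 ± 0.44 at 72 h.

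Of the transport genes Abca1, the exporter that hands cholesterol to apolipoproteins, fell at 24 h and had a difference of 0.14 ± 0.48 at 48 h (adjusted p = 0.849). Its signals were 480, 679 and 482 in uninduced cells, 31.1, 164 and 197 at 24 h, 596, 695 and 516 at 48 h, and 501, 425 and 215 at 72 h. The 24 h arrays lay below all 9 others, and replicate 1 was the lowest of them. The difference was -2.19 ± 0.48 at 24 h (adjusted p = 0.0119), or -1.50 ± 0.28 without that replicate (adjusted p = 0.00229), and at 48 h against 24 h it was 2.33 ± 0.48 (adjusted p = 0.0055). Both dimmer probe sets of Abca1 were lower at 24 h too, at -1.29 ± 0.28 (adjusted p = 0.0139 over all probe sets) and -0.94 ± 0.33 (adjusted p = 0.104). Its promoter, chr4:53159846-53160145 on the minus strand, is shown as the member that moved opposite to the enzymes at 24 h.
Abca1: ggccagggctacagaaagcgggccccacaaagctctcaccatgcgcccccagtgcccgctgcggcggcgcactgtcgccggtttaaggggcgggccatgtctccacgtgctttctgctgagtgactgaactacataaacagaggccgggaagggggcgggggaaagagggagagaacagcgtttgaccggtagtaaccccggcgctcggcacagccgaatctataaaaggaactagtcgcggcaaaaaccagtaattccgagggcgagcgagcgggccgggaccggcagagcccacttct
The window has no capitals, since it holds neither the SREBP element nor a CCAAT box.

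Abcg1, which exports cholesterol to larger lipoproteins, had 507, 252 and 213 at 24 h, against 116, 168 and 120 in uninduced cells. The difference of 1.09 ± 0.36 did not pass (adjusted p = 0.0688), nor did 0.73 ± 0.30 without induced 24 h replicate 1 (adjusted p = 0.09). Stard4, which carries sterol between membranes, had 167, 373 and 664 at 24 h, against 256, 266 and 295 in uninduced cells. It differed by 0.34 ± 0.40 with all arrays and by 0.84 ± 0.28 without that array (adjusted p = 0.0436).

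More members, and more of all genes, were called against uninduced cells without induced 24 h replicate 1. In that fit 16 members rose and 1 fell at 24 h, all 14 calls made with it were kept, and Idi1, Ggps1 and Stard4 were added, while 25% of all genes passed. At 48 h 15 members of 26 were then called and at 72 h 17, where 56.5% and 61.9% of all genes passed. These later counts were thus close to the shares of all genes. Without uninduced replicate 3 the members called were 11 at 24 h, 6 at 48 h and 7 at 72 h, where 6.86%, 29% and 36.3% of all genes passed. Of the enzyme genes, Cyp51, Tm7sf2, Nsdhl and Hsd17b7 rose at all 3 times under either omission.

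**Figure D4:**
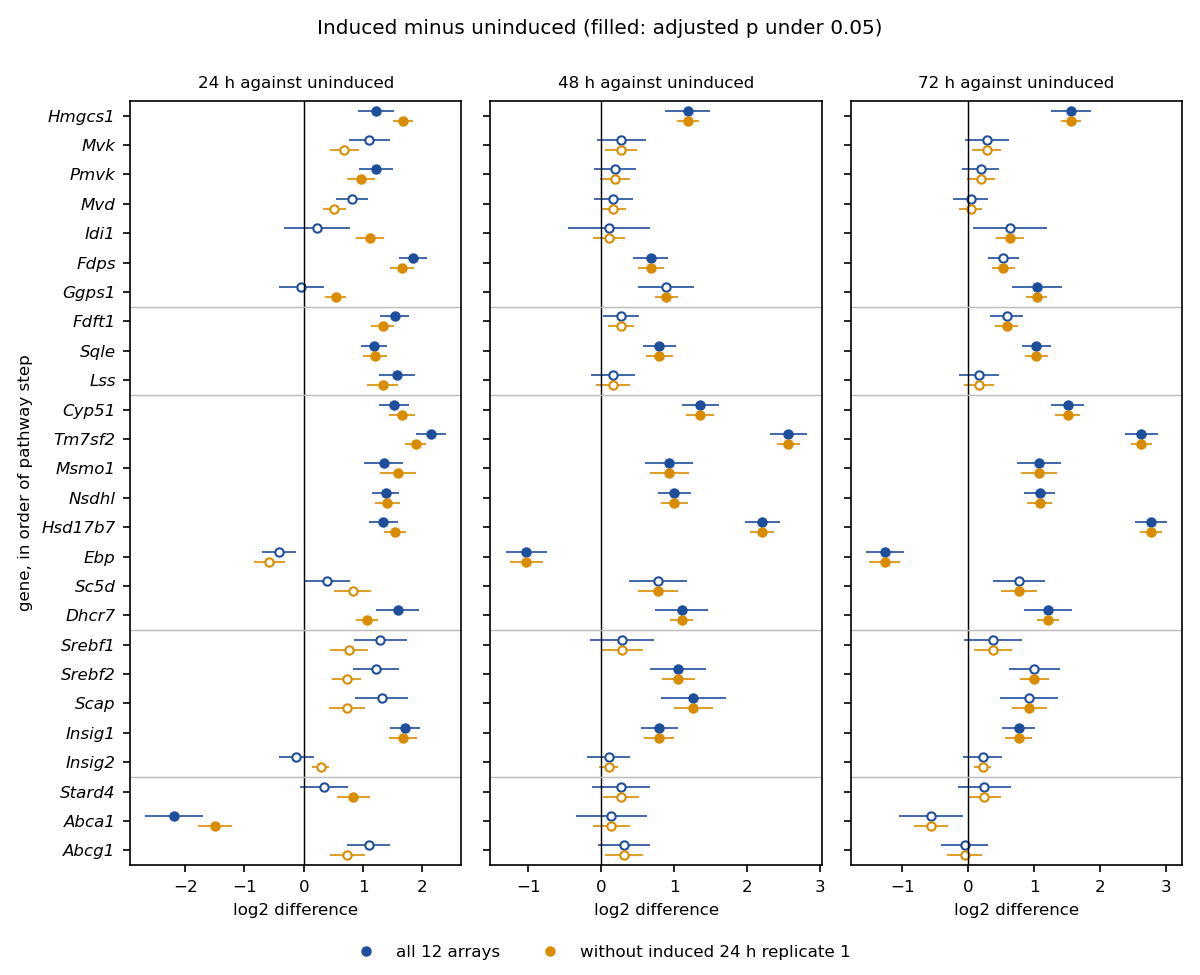
Log2 difference of induced from uninduced cells ± SE (horizontal axes) at 24, 48 and 72 h for the 26 measured genes in order of pathway step; blue is the fit of all 12 arrays, orange the fit without induced 24 h replicate 1, and filled points have an adjusted p under 0.05. The rises at 24 h of Fdps, Fdft1 and Lss shrink at 48 and 72 h, those of Tm7sf2 and Hsd17b7 are larger at 72 h, and Idi1 at 24 h lies at 1.11 without the array and at 0.22 with all 12.

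Promoter letters were compared for the 22 members with a window in the RefSeq table, one or more each. CCAAT, on either strand, was in a window of 19 of the 22 genes (86.4%), against 41.1% of all 27025 genes with such windows. GGGCGG, the box bound by Sp1, was in 20 of 22 (90.9%), against 38.2%. TCACNCCAC was in 1 of 22, Hmgcs1 (4.55%), against 1.44%, and its inner letters CACNCCAC, which lie within it, were in 3 of 22, Acat2, Hmgcs1 and Insig1 (13.6%), against 7.12%. CANNTG, the E-box that factors of the Neurog1 family can bind, was in 18 of 22 (81.8%), against 75%. A match describes letters and not a bound site, and these windows leave out anything farther from the start.

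Neighbouring pathways were counted on lists drawn up with the members, to be read beside the shares of all genes that rose (8.12%, 22.6% and 25.3% at 24, 48 and 72 h) or fell (3.18%, 14% and 18.6%). Of 13 fatty acid synthesis genes 5 rose at 24 h, 6 at 48 h and 4 at 72 h, and none fell, with the count at 72 h close to the share of all genes. Scd1, a stearoyl-CoA desaturase, had 1272 to 2326 at 24 h, against 266 to 475 in uninduced cells (2.20 ± 0.28, adjusted p = 0.000436), and fell by 1.95 ± 0.28 at 72 h against 24 h. Scd2, the main desaturase of brain, rose by 1.96 ± 0.25 at 24 h and 1.48 ± 0.25 at 72 h. Of 16 tested genes of sterol uptake, trafficking and storage 3, 5 and 7 rose at 24, 48 and 72 h and none fell. The lipoprotein receptor genes Vldlr and Lrp8, known as reelin receptors of neurons, led them, with rises of 2.60 ± 0.45 and 2.63 ± 0.29 at 48 h. Lrp8 did not exceed the array median on all uninduced arrays, so it entered the test through induced groups, which favoured a rise. Of 11 tested genes of SREBP processing and turnover 0, 1 and 2 rose, each a smaller share than that of all genes, Erlin2 by 0.61 ± 0.20 at 48 h among them.

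Of 12 tested genes of the isoprenoid branch, which draws on the mevalonate steps without making sterol, 1 rose at 24 h, 1 rose and 1 fell at 48 h, and 2 fell at 72 h, shares near or below those of all genes. Coq2, of ubiquinone synthesis, rose by 1.19 ± 0.27 at 24 h, Fntb, a farnesyltransferase subunit, fell by 1.53 ± 0.53 at 48 h, and Rabggtb, of the geranylgeranyl transferase for Rab proteins, fell by 0.96 ± 0.34 at 72 h. Of 4 tested genes on a list of oxysterol enzymes 0, 2 and 2 rose. Cyp46a1, the brain cholesterol hydroxylase, had 31.4 to 67.0 at 48 h, against 4.68 to 14.1 in uninduced cells (1.48 ± 0.29, adjusted p = 0.00176), and Cyp27a1 rose by 1.27 ± 0.29 at 48 h. Both were dim, so these differences depend on the 16 added to each signal. Neither exceeded the array median on all uninduced arrays, so both entered the test through induced groups, which favoured a rise.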

How the data were processed

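Each array has 1 deposited signal per probe set, an intensity on a linear scale for which the submitters' processing notes name MAS5, without a version or scaling target. Each array had a 2% trimmed mean of 150, as computed here, and no 2 arrays were identical. Precision is limited by the number of arrays, 12 in 4 groups of 3. Gene names come from the platform annotation: 34945 of 45101 had exactly 1 gene symbol, Affymetrix controls left aside, and the others entered no comparison.

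Signals were transformed as log2(signal + 16), and the authors' scaling was kept. A gene was tested where its chosen probe set exceeded the array median (percentile 50) on at least 3 arrays of a group. In R 4.3.3, limma 3.58.1 fitted a linear model of the 4 groups over all genes tested, with eBayes and an intensity trend and 6 two-sided contrasts, each adjusted by Benjamini-Hochberg over those genes, and the procedure was tested on simulated data. The members and lists were chosen with earlier results of these data known. All 27 members are named, with Neurog1 and of each other list at most the called genes with the 2 largest rises or falls per comparison. Alternatives were other pseudocounts, scalings, filters, probe set rules, array weights, fits and each array left out.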

Additional observations from a re-analysis of the deposited data

Results flagged for a closer look

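Several members differed between induced times by a direct test, which means that their difference from uninduced cells depended on the time. At 48 h against 24 h the log2 difference was -1.03 for Pmvk, -1.16 for Fdps, -1.26 for Fdft1, -1.41 for Lss and -0.91 for Insig1, and it was 0.87 for Hsd17b7 and 2.33 for Abca1. At 72 h against 24 h it was -1.03 for Pmvk, -0.77 for Mvd, -1.30 for Fdps, -0.95 for Fdft1, -1.41 for Lss, -0.86 for Ebp, -0.95 for Insig1 and -1.14 for Abcg1. In the same comparison it was 1.09 for Ggps1, 1.44 for Hsd17b7 and 1.62 for Abca1. Without induced 24 h replicate 1 these were 0.51 for Ggps1, 1.24 for Hsd17b7 and 0.94 for Abca1.

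Some dimmer probe sets, which the gene values do not use, passed where the chosen probe set of the gene did not. Probe set 1448663_s_at of Mvd was higher by 1.38 at 24 h than in uninduced cells, and 1429356_s_at of Ggps1 by 1.14 at 48 h. Probe set 1426913_at of Lss was higher by 1.83 at 48 h and 2.24 at 72 h. For Sc5d, 1434520_at was higher by 1.70 at 48 h and 1.91 at 72 h, and 1424709_at by 0.94 at 72 h. The reverse also occurred: 7, 2 and 3 further probe sets at 24, 48 and 72 h against uninduced cells, and 4, 0 and 6 for 48 h against 24 h, 72 h against 48 h and 72 h against 24 h, did not pass where the gene was called. None of the 26 further probe sets tested was called in the direction opposite to its gene's call in the 6 comparisons.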

How the results depend on the processing

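Over 21 alternatives 3042 of 3276 member values kept their side of the threshold, 110 of them uncalled values that changed sign, 159 lost and 73 gained a call, and 2 became called with the opposite sign: Ggps1 at 24 h against uninduced cells without induced 24 h replicate 1 (0.54, in a range of -0.34 to 0.54 over single arrays left out) and Idi1 at 72 h against 24 h with array weights (-0.52). Fitting only the 6 arrays compared gave 5 member calls at 24 h, 17 at 72 h, 4 at 48 h against 24 h and 5 at 72 h against 24 h. The mean of all probe sets gave 3 at 48 h against 24 h, and array weights gave 1 at 72 h against 48 h. With each array left out in turn, member calls ran from 11 to 17 at 24 h, 6 to 15 at 48 h and 7 to 17 at 72 h against uninduced cells, and from 4 to 9 (48 h against 24 h), 0 to 0 (72 h against 48 h) and 5 to 12 (72 h against 24 h). Calls over all genes ran from 385 to 2999 at 24 h, 2921 to 6756 at 48 h and 3468 to 7740 at 72 h against uninduced cells over all alternatives, and from 1045 to 4095, 19 to 1576 and 2020 to 6241 for 48 h against 24 h, 72 h against 48 h and 72 h against 24 h. A replicate block gave 20, 13, 14, 8, 0 and 12 member calls for 24, 48 and 72 h against uninduced cells and for 48 h against 24 h, 72 h against 48 h and 72 h against 24 h, with Mvk, Mvd, Srebf1, Srebf2, Scap and Abcg1 added at 24 h (adjusted p = 0.0463, 0.0463, 0.0201, 0.0117, 0.0235 and 0.0316). For the block, the 6-array fits, the probe set mean and the array weights, the share of all genes called is not given fit by fit. Those member counts are therefore no result about the members. Deviations of same-numbered arrays correlated at 0.031 to 0.577, over 0.1 in 16 of 18 pairs, against -0.479 to 0.322 for different numbers; this hints at pairing, but the labels state none and not every pair passed 0.1, so the fit without the block is the one reported. Quantile normalization moved the median of all genes to -0.03 at 48 h and -0.08 at 72 h against uninduced cells and to -0.14 at 72 h against 24 h, where the members' medians were 0.58, 0.73 and -0.22. The cause of these changes was not tested.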
